A study of Mus musculus with 4 samples.

Results

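A set of 33 genes for basement membrane and matrix proteins was followed in E14TG2a mouse embryonic stem (ES) cells, chosen by gene symbol from the 41543 symbols counted. It held 9 laminin chains, 6 collagen IV chains, 8 linkers and proteoglycans (with the receptor gene Dag1), 4 genes of the Fras1, Frem and nephronectin group, and 6 genes of fibronectin and matricellular proteins. Each of the 33 symbols was found in the count tables. The KAT6A KO group had 2 libraries from E14TG2a cells labelled as a CRISPR/Cas9 knockout of KAT6A, a MYST-family histone acetyltransferase, and the Control group had 2 libraries from E14TG2a cells with the genotype given as Control. Both groups were cultured on gelatin in medium with serum and LIF, a cytokine that keeps mouse ES cells undifferentiated, and the series deals with how KAT6A reaches CpG islands that lack methylation. Whether replicates are separate cultures or clones is not in the labels, and neither is the edit itself. The p-values therefore measure only the spread between these libraries, which may be technical.

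Basement membranes are thin sheets of extracellular matrix under epithelia. Trimers of laminin alpha, beta and gamma chains assemble on integrins and dystroglycan at the cell surface, a network of collagen IV lies over them, and nidogens, perlecan, agrin and other proteins link the layers. In the early mouse embryo parietal endoderm secretes large amounts of laminin and collagen IV into Reichert's membrane, and the inner cell mass and ES cells make laminin as well.

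The targeted gene did not follow the labels in every library. Kat6a had 242 and 86.4 CPM (counts scaled to library size) in the KO pair (the libraries labelled KAT6A KO replicate 1 and replicate 2), against 145 and 143 CPM in Control replicates 1 and 2. The library labelled KAT6A KO replicate 1 lay above both controls and replicate 2 lay below both. Across the 4 libraries Kat6a had a log2 fold change of 0.19 ± 0.41 (SE, edgeR adjusted p = 0.772). Counts over the whole gene do not show whether an edit left a working protein. Libraries held 30185640 and 27494041 counts in the KO group and 35616899 and 37354623 in the Control group, and the KO pair differed more than the Control pair: the SD over tested genes of the difference in log2(CPM + 1) was 0.31 in the KO pair and 0.14 in the Control pair. The 12 ES cell markers summed to 6577 and 7053 CPM in the KO libraries, against 5300 and 5421 CPM in the controls, with none at 0. Mitochondrial genes took 1.80% and 1.30% of counts in the KO libraries, against 2.24% and 2.25% in the controls.

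The laminin genes Lama1, Lamb1 and Lamc1, the collagen IV genes Col4a1 and Col4a2, Sparc and Tinagl1 stood at lower levels in both libraries labelled KAT6A KO than in both controls. So did Lama4, Npnt and Bgn. Lama5, Agrn, Col18a1, Fn1 and Fbln1 stood at higher levels in both KO libraries. Each of these genes but Col4a2 passed the test given below. How many of all tested genes had groups that did not overlap was not counted. The whole set summed to 6447 and 7630 CPM in the KO libraries, against 10070 and 9781 CPM in the Control libraries, which was 0.650% and 0.763% of counts in the KO libraries and 1.00% and 0.970% in the controls. The mean of the summed level was 7038 ± 837 CPM in the KO group and 9926 ± 204 CPM in the Control group (SD, n = 2 each). In bulk RNA, fewer cells that make a transcript and less of it per cell cannot be told apart, and this holds for each level given here.

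Of the 33 members, 30 passed the filter on low counts and 3 did not (Col4a3, Col4a4 and Smoc2). With edgeR's quasi-likelihood test and Benjamini-Hochberg adjustment over the 16112 genes tested, 14 members passed the threshold of 0.05, which was 46.7% of those tested, beside 14.3% of all tested genes. They were 9 lower and 5 higher members, where 8.57% of all tested genes were lower and 5.76% higher. Of the members that passed, 5 were at least 2-fold lower, and 2.57% of all tested genes both passed and were at least 2-fold lower. The median log2 fold change of the 30 was -0.17, against 0.01 over all tested genes. The counts depend on which libraries are kept. A fit that drops 1 library takes the spread of its group from the other group, and the KO pair was the wider. Without Control replicates 1 and 2 in turn, the log2 fold change was 0.51 and 0.60 for Agrn and -1.49 and -1.56 for Col4a1. Without KO replicates 1 and 2 in turn, it was 0.57 and 0.54 for Agrn and -1.01 and -2.34 for Col4a1. With all libraries it was 0.56 for Agrn and -1.52 for Col4a1. Without the low-count filter 5 members were lower, and with an offset for GC content 3 were higher.

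**Figure D1:**
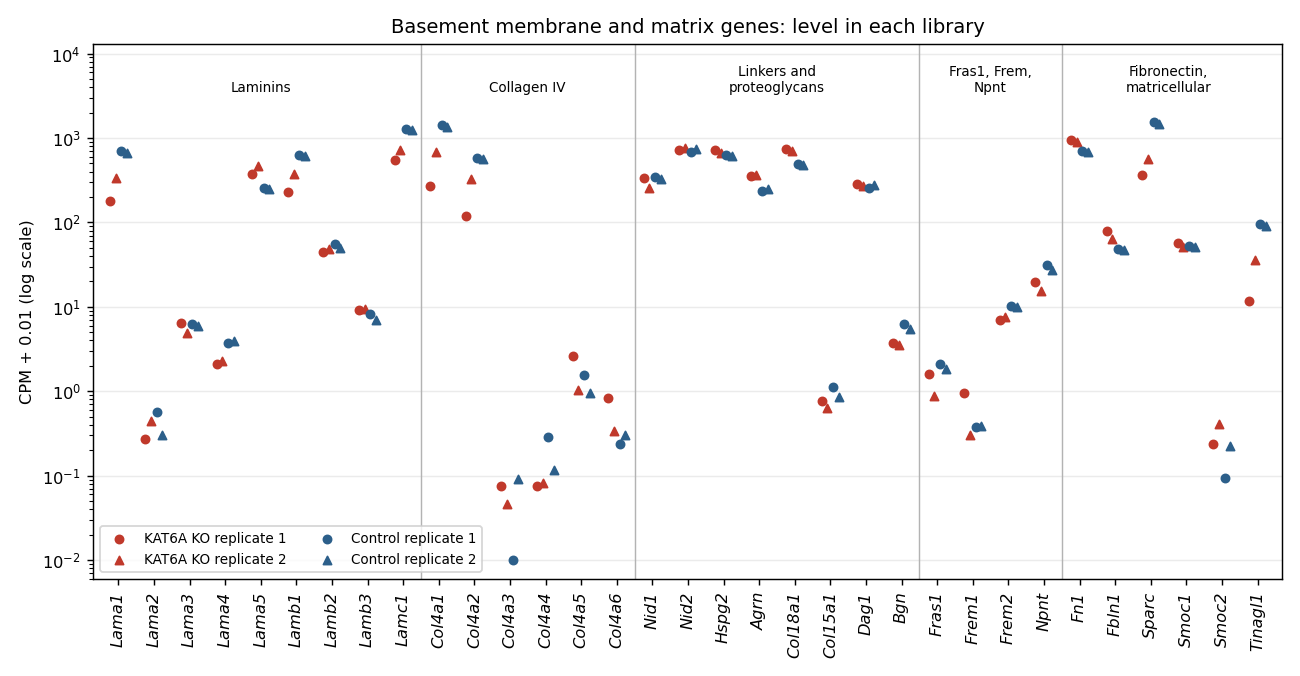
CPM + 0.01 of each of the 33 members on a log axis, grouped by role, with red points for the libraries labelled KAT6A KO, blue points for Control libraries, circles for replicate 1 and triangles for replicate 2, so that a level of 0 sits at 0.01. The KO points of Lama1, Lamb1, Lamc1, Col4a1, Col4a2, Sparc and Tinagl1 lie below both controls, while those of Lama5, Agrn and Col18a1 lie above both.

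Laminins are cross-shaped trimers, and the trimer of Lama1, Lamb1 and Lamc1 is the one found in the first embryonic basement membranes. The genes of its 3 chains each passed the test with lower levels in the libraries labelled KAT6A KO. Summed over the 3 genes, the level was 958 and 1419 CPM in the KO libraries, against 2615 and 2504 CPM in the controls, a ratio of group means of 0.465. Of the 9 laminin genes, 4 were lower, 1 was higher and 4 did not pass.

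Lama1, the alpha chain of that trimer, had 180 and 335 CPM in KO replicates 1 and 2, against 704 and 661 CPM in Control replicates 1 and 2. Both KO libraries lay below both controls, and KO replicate 1 lay further below. The group means were 258 ± 110 CPM in the KO libraries and 683 ± 30.1 CPM in the controls (SD, n = 2 each), a log2 fold change of -1.41 ± 0.26 or 2.65-fold lower (edgeR adjusted p = 0.0228). Without the low-count filter the call was lost (edgeR adjusted p = 0.233). Lamb1, the beta chain, had 229 and 370 CPM in the KO libraries, against 637 and 609 CPM in the controls. It was lower in both KO libraries and more so in replicate 1, with a log2 fold change of -1.06 ± 0.21 (edgeR adjusted p = 0.0262). Its call was likewise lost without the filter (edgeR adjusted p = 0.123). Lamc1, the gamma chain shared by most laminin trimers, had 549 and 714 CPM in the KO libraries, against 1274 and 1234 CPM in the controls. The groups did not overlap, and the log2 fold change was -0.99 ± 0.13 or 1.99-fold lower (edgeR adjusted p = 0.0116). The Lamc1 call was kept under each of the 13 alternative analyses.

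Lama5, the alpha chain that replaces Lama1 in many later epithelia and that is used in laminin coatings for pluripotent cells, had 378 and 462 CPM in the KO libraries, against 258 and 247 CPM in the controls. It was the only laminin gene called higher, with group means of 420 ± 59.4 CPM in the KO libraries and 253 ± 7.98 CPM in the controls (SD, n = 2 each). Its log2 fold change was 0.73 ± 0.11 or 1.66-fold higher (edgeR adjusted p = 0.0151). Over all genes, fold changes moved with the GC content of transcripts: with genes in 5 equal bins of GC content, the median log2 fold change was -0.22 in the lowest bin and 0.23 in the highest. Lama5 has a GC content of 59.9%, and genes within 1 percentage point of it had a median log2 fold change of 0.27. With the GC-content offset the Lama5 log2 fold change was 0.48 (edgeR adjusted p = 0.0163).

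The level per kilobase of exon allows the chains to be set against each other. Lama1 stood at 18.6 and 34.6 CPM per kb in the KO libraries, against 72.7 and 68.3 CPM per kb in the controls. Lama5 stood at 33.2 and 40.5 CPM per kb in the KO libraries, against 22.7 and 21.7 CPM per kb in the controls. The order of the alpha chains thus differed between the groups, with Lama5 above Lama1 in both KO libraries and Lama1 above Lama5 in both controls. The ratio of Lama5 to Lama1 per kb was 1.78 and 1.17 in the KO libraries, against 0.312 and 0.318 in the controls. Lama1 made up 35.4% and 45.7% of the summed level of the 5 alpha chains per kb in the KO libraries, against 75.5% and 75.1% in the controls. Lama5 made up 63.1% and 53.5% of it in the KO libraries, against 23.6% and 23.9% in the controls. Lama1 and Lama5 together came to 51.8 and 75.2 CPM per kb in the KO libraries, against 95.4 and 90.01 CPM per kb in the controls, so their sum was lower in both KO libraries than in both controls. With 2 libraries a group, an exact permutation test of such a ratio cannot give a two-sided p below 0.333, and none was run.

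**Figure D2:**
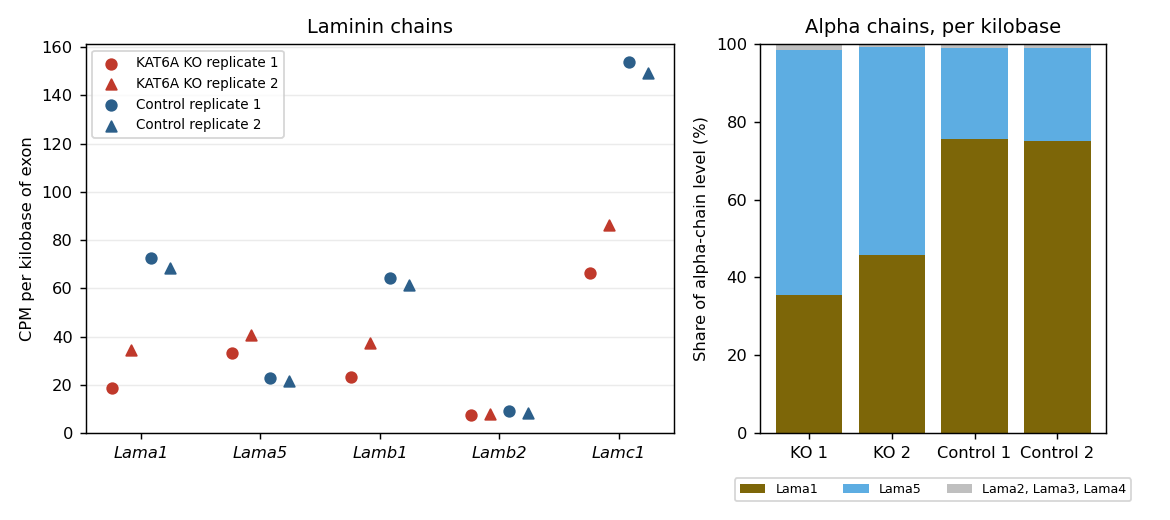
Left, levels of 5 laminin chains in each library (CPM per kilobase of exon); right, the percentage of the summed level of the 5 alpha chains per kb that Lama1, Lama5 and the other alpha chains take in each library, with the libraries labelled KAT6A KO drawn before the controls. Lama1 takes 35.4% and 45.7% in the KO libraries, against 75.5% and 75.1% in the controls, and Lamb1 and Lamc1 are lower in both KO libraries.

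Among the beta chains, Lamb1 remained the most abundant per kb in every library. The ratio of Lamb1 to Lamb2 per kb was 3.11 and 4.70 in the KO libraries, against 7.05 and 7.53 in the controls. Lamb2, a beta chain of mature neuromuscular and kidney basement membranes, had 45.2 and 48.3 CPM in the KO libraries, against 55.4 and 49.6 CPM in the controls. Its log2 fold change of -0.17 ± 0.10 did not pass (edgeR adjusted p = 0.289), whereas with the GC-content offset it was -0.38 and passed (edgeR adjusted p = 0.0459). Lama4, an alpha chain of vascular basement membranes, was detected at low depth with 64 and 62 counts in the KO libraries, against 132 and 144 counts in the controls. Both KO libraries were below both controls, with a log2 fold change of -0.80 ± 0.19 (edgeR adjusted p = 0.0426). Dropping Control replicate 1 (edgeR adjusted p = 0.261) or Control replicate 2 (edgeR adjusted p = 0.325) ended that call, as did DESeq2 (adjusted p = 0.0799). Lama3, Lamb3 and Lama2, chains of epidermal and muscle laminins, did not pass. Lama3 had 6.44 and 4.84 CPM in the KO libraries against 6.30 and 5.99 CPM in the controls, Lamb3 had 9.20 and 9.39 against 8.33 and 6.97 CPM, and Lama2 had 0.263 and 0.437 against 0.563 and 0.297 CPM. Of these 3 genes, Lamb3 alone had both KO libraries above both controls, and its log2 fold change was 0.28 ± 0.16 (edgeR adjusted p = 0.255).

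Collagen IV genes lie in pairs that start head to head, and the Col4a1 and Col4a2 chains form the trimer present in nearly all basement membranes. In the GENCODE M21 annotation of GRCm38 the 2 genes overlap by 22 bases at their starts on opposite strands. The windows from 250 bases before to 50 bases after each start are shown because one stretch of 78 bases belongs to both. The Col4a1 window is chr8:11312777-11313076 on the minus strand and the Col4a2 window is chr8:11312555-11312854 on the plus strand. Each is printed 5′ to 3′ on the strand of its gene, from RefSeq on GRCm38.p6, and capitals mark CpG dinucleotides.
Col4a1: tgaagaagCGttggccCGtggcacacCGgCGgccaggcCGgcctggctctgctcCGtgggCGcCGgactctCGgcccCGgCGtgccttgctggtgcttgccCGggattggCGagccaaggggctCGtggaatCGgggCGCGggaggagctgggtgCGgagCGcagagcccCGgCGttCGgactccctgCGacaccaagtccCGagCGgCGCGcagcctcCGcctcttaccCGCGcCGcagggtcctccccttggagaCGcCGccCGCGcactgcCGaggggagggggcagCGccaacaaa
Col4a2: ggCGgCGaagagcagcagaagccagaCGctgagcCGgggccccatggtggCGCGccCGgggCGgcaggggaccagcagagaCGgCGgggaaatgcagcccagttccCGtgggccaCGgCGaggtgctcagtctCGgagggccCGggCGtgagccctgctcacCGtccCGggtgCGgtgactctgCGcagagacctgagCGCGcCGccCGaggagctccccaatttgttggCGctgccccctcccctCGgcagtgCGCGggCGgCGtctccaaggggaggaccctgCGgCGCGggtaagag
The Col4a1 window holds 37 CpG, a number reached by 5.58% of the 32841 promoter windows in the table, and the Col4a2 window holds 33, reached by 8.56%. The median window of 300 bases holds 7. The letters CCAAT, read on both strands, occur once in each of these windows and in 37.4% of all windows. The letters GGGCGG, read on both strands, occur once in the Col4a1 window, 3 times in the Col4a2 window and in 35.7% of all windows.

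Col4a1 had 272 and 686 CPM in KO replicates 1 and 2, against 1413 and 1341 CPM in the controls. Both KO libraries were lower, replicate 1 far more so than replicate 2, whose level was 2.52 times that of replicate 1. The group means were 479 ± 292 CPM in the KO libraries and 1377 ± 50.9 CPM in the controls (SD, n = 2 each), a log2 fold change of -1.52 ± 0.38 or 2.88-fold lower (edgeR adjusted p = 0.0466). The log2 fold change was -1.01 without KO replicate 1 and -2.34 without KO replicate 2. The call was lost without Control replicate 1 (edgeR adjusted p = 0.609) or Control replicate 2 (edgeR adjusted p = 0.599), in the absence of the low-count filter (edgeR adjusted p = 0.377), by requiring 1 CPM in 2 libraries (edgeR adjusted p = 0.0559) and in DESeq2 (adjusted p = 0.0749).

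Col4a2 had 118 and 324 CPM in the KO libraries, against 584 and 557 CPM in the controls. Its levels were ordered as those of Col4a1 were, with KO replicate 1 lowest and KO replicate 2 between it and the controls. Its log2 fold change of -1.37 ± 0.41 did not pass (edgeR adjusted p = 0.0712), while limma-voom (adjusted p = 0.0461) and edgeR under the GC-content offset (adjusted p = 0.0350) did call it. The ratio of Col4a1 to Col4a2 counts stayed within a narrow range in every library, at 2.30 and 2.12 in the KO libraries, against 2.42 and 2.41 in the controls. Per kb of exon the ratio was 2.04 and 1.88 in the KO libraries, against 2.15 and 2.14 in the controls. Summed over both genes, the level was 390 and 1009 CPM in the KO libraries, against 1997 and 1898 CPM in the controls, a ratio of group means of 0.359.

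The other collagen IV chains, which build the networks of kidney, lung and some epithelia, were at or near the limit of detection. Col4a5 had 2.60 and 1.02 CPM in the KO libraries, against 1.55 and 0.945 CPM in the controls, with groups that overlapped (log2 fold change 0.55 ± 0.47, edgeR adjusted p = 0.451). Col4a6 had 0.821 and 0.327 CPM in the KO libraries, against 0.225 and 0.297 CPM in the controls, and did not pass (log2 fold change 1.14 ± 0.54, edgeR adjusted p = 0.192). Col4a3 had 2 and 1 counts in the KO libraries, against 0 and 3 counts in the controls, and Col4a4 had 2 and 2 counts in the KO libraries, against 10 and 4 counts in the controls. These 2 genes had too few counts to be tested. The starts of Col4a3 and Col4a4 lie 71 bases apart in the annotation and those of Col4a5 and Col4a6 lie 1308 bases apart.

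The linkers and proteoglycans were the role with a higher summed level in the libraries labelled KAT6A KO: 3175 and 3043 CPM in the KO libraries, against 2650 and 2688 CPM in the controls. The ratio of group means was 1.16, and the sum of this role carries no GC-content offset. Of its 8 genes, 2 passed as higher, 1 passed as lower and 5 did not pass. The nidogens bind laminin through its gamma chain and connect it to collagen IV. Nid1 had 335 and 259 CPM in the KO libraries, against 342 and 330 CPM in the controls, and Nid2 had 726 and 772 CPM in the KO libraries, against 691 and 736 CPM in the controls. Both genes had groups that overlapped, with log2 fold changes of -0.18 ± 0.13 (edgeR adjusted p = 0.377) for Nid1 and 0.07 ± 0.09 (edgeR adjusted p = 0.6004) for Nid2. Per kb, Nid2 exceeded Nid1 in every library, by 2.91 and 3.999 times in the KO libraries, against 2.72 and 2.99 times in the controls.

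Agrn, the heparan sulfate proteoglycan agrin that clusters receptors at the neuromuscular junction, had 353 and 361 CPM in the KO libraries, against 236 and 250 CPM in the controls. The KO libraries lay close together and above both controls, with means of 357 ± 5.78 CPM in the KO group and 243 ± 9.40 CPM in the Control group (SD, n = 2 each). The log2 fold change was 0.56 ± 0.08 (edgeR adjusted p = 0.0137). Col18a1, a basement membrane collagen with heparan sulfate chains whose end fragment is endostatin, had 741 and 707 CPM in the KO libraries, against 489 and 485 CPM in the controls. It was higher in both KO libraries, with a log2 fold change of 0.57 ± 0.08 (edgeR adjusted p = 0.0126). Transcripts of Col18a1 have a GC content of 60.8%, where tested genes within 1 percentage point had a median log2 fold change of 0.31. With the GC-content offset the Col18a1 log2 fold change was 0.31 and did not pass (edgeR adjusted p = 0.0852), while that of Agrn was 0.40 and passed (edgeR adjusted p = 0.0196). Both calls were lost without Control replicate 1 (edgeR adjusted p = 0.140 for Agrn and 0.0917 for Col18a1) and without Control replicate 2 (edgeR adjusted p = 0.0615 for Agrn and 0.0909 for Col18a1).

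Hspg2, which encodes perlecan, the large heparan sulfate proteoglycan of basement membranes, had 729 and 670 CPM in the KO libraries, against 626 and 607 CPM in the controls. The KO libraries lay above both controls, but the log2 fold change of 0.18 ± 0.09 did not pass (edgeR adjusted p = 0.190) and was -0.09 with the GC-content offset. Dag1, the laminin receptor dystroglycan, had 286 and 269 CPM in the KO libraries, against 258 and 274 CPM in the controls, and the groups overlapped (log2 fold change 0.06 ± 0.08, edgeR adjusted p = 0.648). Col15a1, a collagen related to Col18a1, had 0.756 and 0.618 CPM in the KO libraries, against 1.13 and 0.837 CPM in the controls, and did not pass (edgeR adjusted p = 0.310). Bgn, the small proteoglycan biglycan, had 3.75 and 3.49 CPM in the KO libraries, against 6.19 and 5.51 CPM in the controls. Its log2 fold change was -0.69 ± 0.18 (edgeR adjusted p = 0.0483), and the call was lost with library sizes left unscaled (edgeR adjusted p = 0.0523), with DESeq2 (adjusted p = 0.0655), without Control replicate 1 (edgeR adjusted p = 0.426) and without Control replicate 2 (edgeR adjusted p = 0.242).

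**Figure D3:**
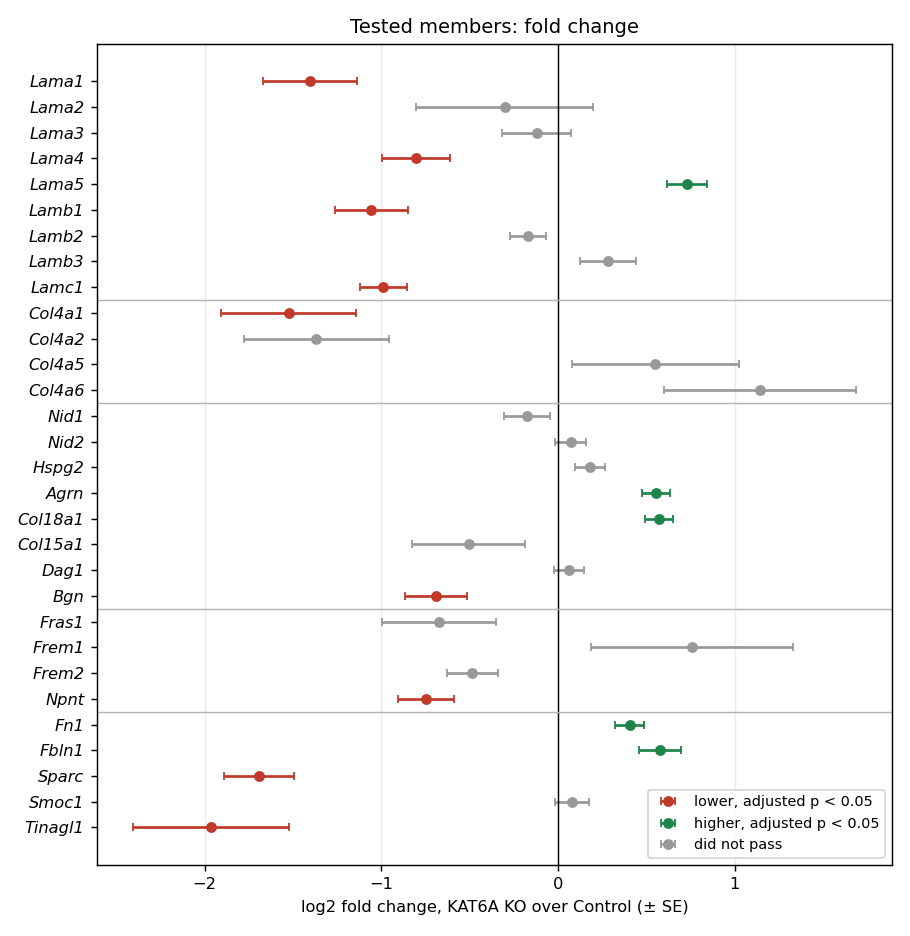
Log2 fold change, KAT6A KO over Control, with bars of 1 SE for each of the 30 tested members in the order of their roles, in red or green where the edgeR adjusted p was below 0.05 (lower or higher) and in grey where it was not. Sparc, Tinagl1, Col4a1, Lama1, Lamb1 and the uncalled Col4a2 lie below -1, and the 5 members called higher lie between 0.41 and 0.73.

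The Fras1, Frem and nephronectin group anchors epidermal and kidney basement membranes. Npnt, the integrin ligand nephronectin, had 19.6 and 15.4 CPM in the KO libraries, against 31.7 and 27.2 CPM in the controls. Both KO libraries were lower and here replicate 2 was the lower of the pair, with a log2 fold change of -0.75 ± 0.16 (edgeR adjusted p = 0.0299). Without Control replicate 1 the call was lost (edgeR adjusted p = 0.144). Frem2 had 6.90 and 7.60 CPM in the KO libraries, against 10.2 and 10.1 CPM in the controls. The groups did not overlap, but the log2 fold change of -0.49 ± 0.14 did not pass (edgeR adjusted p = 0.0691). Fras1 had 1.58 and 0.873 CPM in the KO libraries, against 2.11 and 1.84 CPM in the controls, and Frem1 had 0.953 and 0.291 CPM in the KO libraries, against 0.366 and 0.378 CPM in the controls. Neither passed, with edgeR adjusted p of 0.192 for Fras1 and 0.389 for Frem1.

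The fibronectin and matricellular group held calls in both directions, 2 lower and 2 higher among its 5 tested genes. Sparc, a collagen-binding glycoprotein that parietal endoderm secretes in quantity, had the highest level per kb of all members in the controls. Its promoter window is shown for contrast with the collagen IV pair and with Lama5, the laminin gene called higher. The Sparc window is chr11:55420031-55420330 on the minus strand and the Lama5 window is chr2:180225810-180226109 on the minus strand, both from RefSeq on GRCm38.p6, printed 5′ to 3′ on the strand of the gene with CpG in capitals.
Sparc: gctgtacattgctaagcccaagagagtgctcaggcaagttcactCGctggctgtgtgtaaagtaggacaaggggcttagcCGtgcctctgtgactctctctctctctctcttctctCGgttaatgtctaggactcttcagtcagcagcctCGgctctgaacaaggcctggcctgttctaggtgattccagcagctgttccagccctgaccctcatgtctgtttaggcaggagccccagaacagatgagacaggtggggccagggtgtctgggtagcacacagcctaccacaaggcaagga
Lama5: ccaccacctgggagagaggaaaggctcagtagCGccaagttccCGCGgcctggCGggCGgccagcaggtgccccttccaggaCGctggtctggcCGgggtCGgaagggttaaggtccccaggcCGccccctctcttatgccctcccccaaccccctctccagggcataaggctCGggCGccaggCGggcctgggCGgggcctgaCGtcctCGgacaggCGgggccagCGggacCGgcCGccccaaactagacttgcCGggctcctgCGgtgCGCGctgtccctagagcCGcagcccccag
The Sparc window holds 4 CpG, a number reached by 68.6% of all windows, and the Lama5 window holds 24, reached by 19.98%. RefSeq windows were found for 23 members, and the first window of each called member that has one held 4 (Sparc) to 37 (Col4a1) CpG among the lower members and 12 (Fbln1) to 42 (Agrn) among the higher ones, so the ranges overlapped. The letters AGATAA, read on both strands, occur in 11.2% of all windows and in 0 of the 31 member windows that were read, which says only that these letters are not in those windows.

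Sparc had 365 and 565 CPM in the KO libraries, against 1533 and 1469 CPM in the controls. Both KO libraries were far below both controls and replicate 1 was the lower. The group means were 465 ± 142 CPM in the KO libraries and 1501 ± 44.9 CPM in the controls (SD, n = 2 each), a log2 fold change of -1.69 ± 0.20 or 3.23-fold lower (edgeR adjusted p = 0.00944). Per kb, Sparc stood at 96.3 and 149 CPM in the KO libraries, against 405 and 388 CPM in the controls. Sparc lies on chromosome 11, whose tested genes had a median log2 fold change of -0.46. The Sparc call was kept under each of the 13 alternatives.

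Tinagl1, a secreted protein related to tubulointerstitial nephritis antigen that binds laminin and integrins, had 11.8 and 35.9 CPM in the KO libraries, against 95.0 and 90.5 CPM in the controls. It had the most negative fold change of the members and a wide KO pair, whose replicate 2 stood at 3.04 times replicate 1. The log2 fold change was -1.96 ± 0.44 or 3.90-fold lower (edgeR adjusted p = 0.0357), and it was -1.37 without KO replicate 1 and -2.97 without KO replicate 2. The call was lost without Control replicate 1 (edgeR adjusted p = 0.707), without Control replicate 2 (edgeR adjusted p = 0.699) and without the low-count filter (edgeR adjusted p = 0.334).

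Fn1, fibronectin, the main ligand of integrin alpha 5 beta 1, had 937 and 890 CPM in the KO libraries, against 700.2 and 678 CPM in the controls. It was higher in both KO libraries, with a log2 fold change of 0.41 ± 0.08 (edgeR adjusted p = 0.0275). Fbln1, fibulin 1, a glycoprotein that binds fibronectin, laminin and nidogen, had 78.5 and 64.1 CPM in the KO libraries, against 48.4 and 47.2 CPM in the controls. It too was higher in both, with a log2 fold change of 0.58 ± 0.12 (edgeR adjusted p = 0.0281), and the GC-content offset ended the call (edgeR adjusted p = 0.0690). Both calls were lost without Control replicate 1 (edgeR adjusted p = 0.286 for Fn1 and 0.0888 for Fbln1) and without Control replicate 2 (edgeR adjusted p = 0.342 for Fn1 and 0.110 for Fbln1). Smoc1, a calcium-binding relative of Sparc, had 57.6 and 51.3 CPM in the KO libraries, against 52.4 and 50.8 CPM in the controls (edgeR adjusted p = 0.613). Smoc2, its close relative, had only 7 and 11 counts in the KO libraries, against 3 and 8 counts in the controls.

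The pair of libraries labelled KAT6A KO differed in how far the lower members were lowered. In 7 of the 9 members called lower, KO replicate 1 lay below KO replicate 2. The same share over all tested genes was not counted. The level in replicate 2 was 3.04 times that in replicate 1 for Tinagl1, 2.52 times for Col4a1, 1.86 times for Lama1, 1.62 times for Lamb1, 1.55 times for Sparc, 1.30 times for Lamc1 and 1.07 times for Lama4. For the uncalled Col4a2 it was 2.74 times. Among members called higher it was 1.22 times for Lama5, 1.02 times for Agrn, 0.955 times for Col18a1, 0.949 times for Fn1 and 0.817 times for Fbln1. KO replicate 1, the library further below the controls for Col4a1, Col4a2, Lama1, Lamb1 and Lamc1, was also the one with the higher Kat6a level. With KO replicate 1 left out, the log2 fold change was -1.03 for Lama1, -0.75 for Lamb1, -0.81 for Lamc1 and -1.41 for Sparc. With KO replicate 2 left out it was -1.92 for Lama1, -1.45 for Lamb1, -1.19 for Lamc1 and -2.04 for Sparc.

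**Figure D4:**
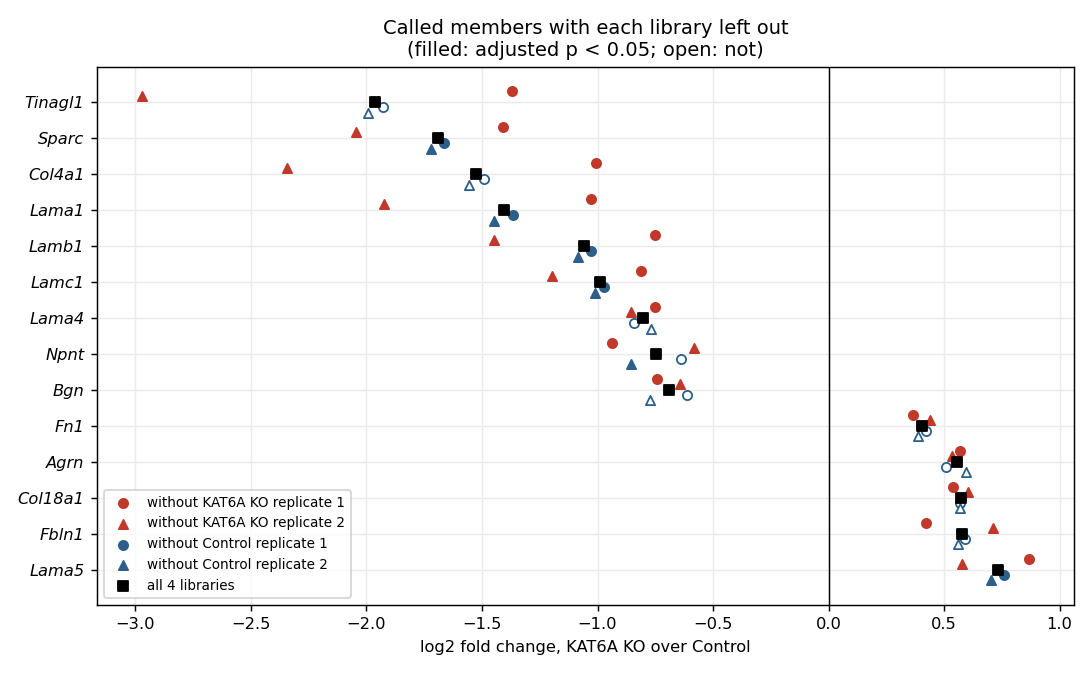
Log2 fold change, KAT6A KO over Control, of the 14 called members with all 4 libraries (squares) and with each library left out in turn (circles and triangles), filled where the adjusted p was below 0.05 and open where it was not. The lower members stay below 0 throughout, and leaving out KO replicate 1 brings Col4a1 to -1.01 and Tinagl1 to -1.37, against -2.34 and -2.97 without KO replicate 2.

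Marker lists of other cell types did not all move in the same direction. The 15 parietal endoderm markers that are not members summed to 79.8 and 187 CPM in the KO libraries, against 408 and 413 CPM in the controls, with none at 0 in any library. The KO libraries were below the controls and replicate 1 was the lower, as for Col4a1 and Lama1. The whole list of 17 also holds the members Nid1 and Sparc, of which Sparc passed as lower. The list was chosen with earlier results of these data known. Of it, 58.8% passed the test, beside 14.3% of all tested genes. Its median log2 fold change was -1.56, and 10 markers passed, each of them lower. That count was 17 without KO replicate 1, 16 without KO replicate 2 and 6 without the low-count filter. Thbd, thrombomodulin, had 0.493 and 2.04 CPM in the KO libraries, against 19.0 and 19.5 CPM in the controls (log2 fold change -3.95 ± 0.46, edgeR adjusted p = 0.00933). Fst, the activin antagonist follistatin, had 3.35 and 5.89 CPM in the KO libraries, against 33.03 and 33.31 CPM in the controls (log2 fold change -2.85, edgeR adjusted p = 0.00586). Pdgfra, a receptor of primitive endoderm, had 5.62 and 12.2 CPM in the KO libraries, against 35.1 and 34.2 CPM in the controls (log2 fold change -1.96, edgeR adjusted p = 0.0166). The part of such cells in the levels of the matrix genes was not tested.

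The visceral endoderm markers summed to 139 and 142 CPM in the KO libraries, against 166 and 166 CPM in the controls. Summed per kb of exon, the direction was the opposite. That level was 32.8 and 34.1 CPM per kb in the KO libraries, against 30.1 and 29.1 CPM per kb in the controls. Of 12 tested, 3 passed as higher (Amn, Hnf4a and Spink1, with log2 fold changes of 1.09, 1.04 and 0.67) and 1 as lower (Lrp2, -0.42). The share called was 33.3% here, 25.0% for ES cells, 57.1% for trophoblast, 14.3% for endothelium and 0% for fibroblasts. Over all tested genes it was 14.3%. Of the 12 ES cell markers, Tfcp2l1, Esrrb and Sall4 passed as higher, with log2 fold changes of 0.60, 0.56 and 0.50. Of 7 tested trophoblast markers 4 were lower, among them Hand1 at -3.15, Gata3 at -1.05 and Krt7 at -0.70, and the list summed to 18.6 and 20.1 CPM in the KO libraries, against 36.1 and 37.4 CPM in the controls, with Tpbpa at 0 in every library. Fibroblast markers summed to 30.2 and 25.4 CPM in the KO libraries, against 22.1 and 21.9 CPM in the controls, with Lum at 0 in every library. The most abundant of them, Thy1, had 17.9 and 16.4 CPM in the KO libraries, against 12.3 and 12.7 CPM in the controls, and did not pass (edgeR adjusted p = 0.0559). Endothelial markers summed to 112 and 92.3 CPM in the KO libraries, against 104 and 101 CPM in the controls, with Emcn at 0 in every library and Cdh5 lower by a log2 fold change of -1.80. Without Control replicate 1 the calls were 0 higher for visceral endoderm, 1 higher for ES cells and 2 lower for trophoblast, and without KO replicate 1 there were 10 higher ES cell markers. The part of these cells was not tested either.

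Other genes of the same biology were read from 5 companion lists of 135 genes, of which 118 were tested. Across them 20 passed as lower and 12 as higher, 27.1% of those tested, beside 14.3% of all tested genes. The share was 34.5% for collagen folding and crosslinking enzymes and 45.8% for interstitial matrix. It was 21.4% for receptors, 18.5% for other basement membrane components and 9.09% for dystroglycan glycosylation, which are nearer to the share of all genes. Without KO replicate 1 the lower and higher counts were 40 and 25, without KO replicate 2 they were 36 and 34, and the higher count was 5 without Control replicate 1 and 7 without Control replicate 2. The list of collagen folding and crosslinking enzymes also holds chaperones and genes with other roles, such as export and transcription. It gave 10 calls among 29 tested, each of them lower, and its median log2 fold change was -0.45. A gene called lower stands both in this list and in another, so the lower counts of the lists add to more than 20. Plod2, a collagen lysyl hydroxylase, had 113 and 133 CPM in the KO libraries, against 256 and 249 CPM in the controls (log2 fold change -1.04, edgeR adjusted p = 0.00696). Both KO libraries were below both controls, and the call was kept under each of the 13 alternatives. Loxl2, a lysyl oxidase that crosslinks collagen IV, had 12.6 and 25.1 CPM in the KO libraries, against 52.8 and 49.9 CPM in the controls (log2 fold change -1.45, edgeR adjusted p = 0.0269). P4ha2, a catalytic subunit of prolyl 4-hydroxylase on chromosome 11, had 27.8 and 48.0 CPM in the KO libraries, against 95.9 and 86.4 CPM in the controls (log2 fold change -1.27, edgeR adjusted p = 0.0226). Loxl2 and P4ha2 were lower in both KO libraries and lowest in replicate 1, and both calls were lost without the low-count filter. Serpinh1, the collagen chaperone HSP47, and P4hb, the other subunit of prolyl 4-hydroxylase, also on chromosome 11, were chosen after their values were seen. Serpinh1 had 96.5 and 131 CPM in the KO libraries, against 217 and 211 CPM in the controls (log2 fold change -0.92, edgeR adjusted p = 0.0154), and P4hb had 479 and 592 CPM in the KO libraries, against 956 and 984 CPM in the controls (log2 fold change -0.86, edgeR adjusted p = 0.0118). Tested genes on chromosome 11, where P4ha2 and P4hb lie, had a median log2 fold change of -0.46.

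**Figure D5:**
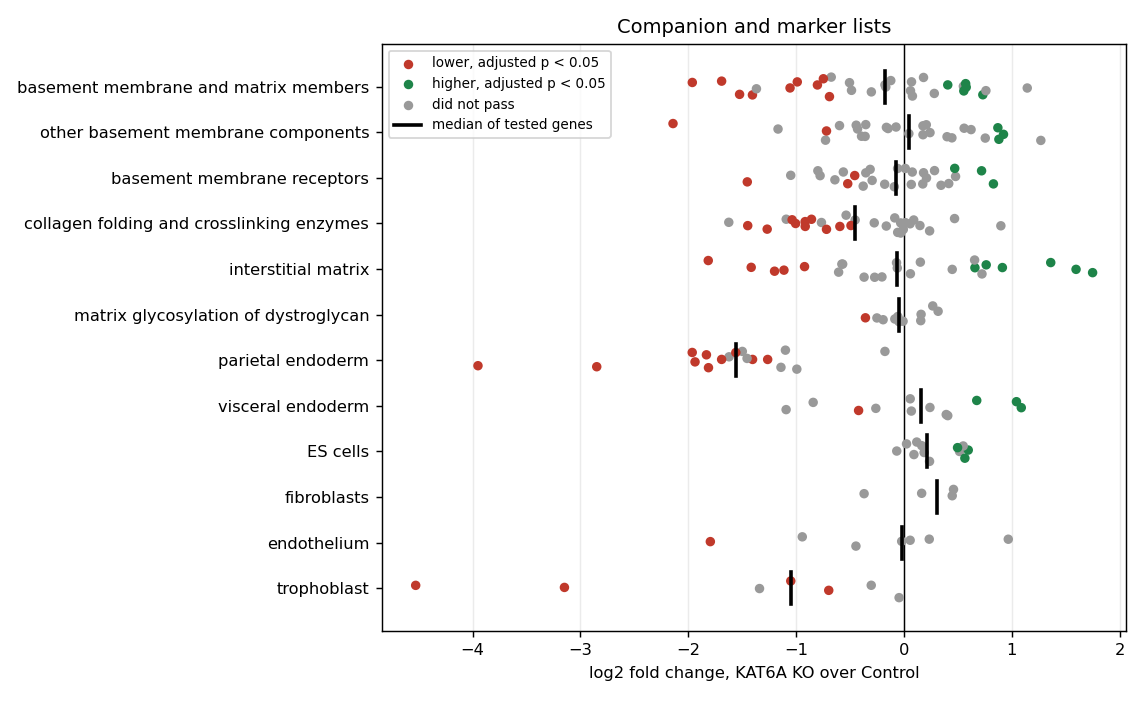
Log2 fold changes, KAT6A KO over Control, of the tested genes of the members, of each companion list and of each marker list, 1 point per gene, red where called lower, green where called higher and grey otherwise, with a bar at the median of each list. The collagen enzymes have a median of -0.45 and the parietal endoderm markers a median of -1.56, while the median over all tested genes is 0.01.

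Receptors for the basement membrane were called in both directions, 3 lower and 3 higher among 28 tested. Itga5, the integrin subunit of the fibronectin receptor, had 111.4 and 129.5 CPM in the KO libraries, against 64.2 and 71.4 CPM in the controls (log2 fold change 0.83, edgeR adjusted p = 0.0116). It was higher in both KO libraries, as its ligand gene Fn1 was. Itgb1, the beta subunit shared by most laminin and collagen receptors, had 222 and 202 CPM in the KO libraries, against 302 and 307 CPM in the controls (log2 fold change -0.52, edgeR adjusted p = 0.0169). Itga3, an alpha subunit of laminin receptors on chromosome 11, and Gpc6, a glypican, were lower as well, with log2 fold changes of -0.46 and -1.45. The value of Itga3 was close to the median log2 fold change of tested genes on chromosome 11, -0.46. Any part of the chromosome in it was not tested. Bcam, which binds the alpha chain encoded by Lama5, and Rpsa, a ribosomal protein also named as a laminin receptor, were higher, with log2 fold changes of 0.47 and 0.72. Reads of Rpsa can be shared with its many processed copies, so its value is uncertain. The receptor calls for Itgb1, Itga3, Rpsa and Bcam were each lost without either control library, and each direction then held 1 call. The GC-content offset ended the call of Bcam as well. Without KO replicate 1 the receptors held 10 lower and 8 higher calls, and without KO replicate 2 they held 9 lower and 9 higher.

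Among 27 tested genes of other basement membrane components, 2 were lower and 3 were higher. Ntn4, netrin 4, which binds the gamma chain of laminin, had 0.361 and 0.982 CPM in the KO libraries, against 2.76 and 3.11 CPM in the controls (log2 fold change -2.14, edgeR adjusted p = 0.0227). Pxdn, peroxidasin, which crosslinks collagen IV through sulfilimine bonds, had 31.7 and 38.2 CPM in the KO libraries, against 58.6 and 56.4 CPM in the controls (log2 fold change -0.72, edgeR adjusted p = 0.0166). Both were lower in each KO library than in either control and kept their calls under each of the 13 alternatives. Spock2, Ltbp3 and Hmcn2, a testican, a latent TGF-beta binding protein and a hemicentin, were higher, with log2 fold changes of 0.92, 0.88 and 0.87. The calls of Ltbp3 and Hmcn2 were lost without Control replicate 1, and that of Ltbp3 also without Control replicate 2 and under the GC-content offset. The lower and higher counts of this list were 7 and 5 without KO replicate 1 and 5 and 11 without KO replicate 2. Interstitial matrix genes gave 5 lower and 6 higher calls among 24 tested, with Col5a2, Thbs1 and Ccn2 at log2 fold changes of -1.82, -1.42 and -1.20 and Eln, Col16a1 and Emilin1 at 1.60, 1.36 and 0.91. Without Control replicate 1 the 6 higher calls were 3, with those of Col16a1 and Emilin1 among the calls lost. The call of Eln was lost without Control replicate 2, and that of Col16a1 also under the GC-content offset. Of 11 tested genes that glycosylate dystroglycan, B3galnt2 alone passed (log2 fold change -0.36, edgeR adjusted p = 0.0489), and it was kept under only 6 of the 13 alternatives.

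In the authors' deposited table of their own comparison, 27 members had an adjusted p and 10 were below 0.05, of which 5 were lower and 5 higher. All 10 were also called here with the same direction. The authors' deposited table gave log2 fold changes of -0.88 for Lama1 (adjusted p = 0.0134), -0.95 for Lamb1 (adjusted p = 6.21e-07), -0.93 for Lamc1 (adjusted p = 1.14e-09) and 0.70 for Lama5 (adjusted p = 3.69e-06). In the authors' deposited table Sparc had a log2 fold change of -1.54 (adjusted p = 4.23e-19). The other 4 members called here did not pass in the authors' deposited table, where the adjusted p was 0.0825 for Col4a1 (log2 fold change -0.68), 0.0553 for Tinagl1 (log2 fold change -0.72), 0.0974 for Lama4 and 0.0792 for Bgn. DESeq2 run here after the low-count filter gave log2 fold changes of -1.40 for Lama1, -1.52 for Col4a1, -1.95 for Tinagl1 and 0.74 for Lama5. Some deposited fold changes were thus smaller than those from DESeq2 here, and the reason was not tested. The sizes should not be read as the same measure.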

How the data were processed

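Messenger RNA of 2 libraries labelled KAT6A KO and 2 Control libraries was measured. Libraries were made with a stranded poly(A) kit, per the labels' protocols. The deposited tables give each library's read counts as whole numbers, listed by symbol. Per the submitters' processing notes, featureCounts and DESeq2 were used. How strand was handled, and the aligner and build, are not stated in the labels or files at hand. Overlapping genes such as Col4a1 and Col4a2 could therefore share reads. The authors also deposited a table of their comparison, read by its column order as a mean normalized count (signal), a log2 fold change with its SE, a Wald statistic (score), a p-value and an adjusted p-value.

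The counts, 27494041 to 37354623 per library, were tested with edgeR 4.0.16 under R 4.3.3: filterByExpr by group (16112 of 41543 symbols), TMM scaling (factors 0.992 to 1.01), the robust quasi-likelihood test of group, and Benjamini-Hochberg adjustment with a threshold of 0.05. CPM was computed on TMM-scaled library sizes, and the common biological coefficient of variation came to 0.112. Library pairs of a group differed by more than sampling noise (mean chi-square per gene 34.6 in the KO pair and 3.73 in the Control pair). Each library was counted separately, although such a spread does not show that the libraries come from separate cultures. Exon lengths, chromosomes and transcript GC content (known for 98.4% of tested genes) came from GENCODE M21 on GRCm38. Promoter windows came from RefSeq on GRCm38.p6, for 23 members, with member windows on chromosome 18 left out.

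Alternatives, 13 in all, changed the scaling, the low-count filter, the tool (DESeq2 1.42.0, limma 3.58.1 voom), the model (a lowess GC-content offset with a span of 0.3, the replicate number as a block, both) or left out 1 library. Fits that drop a library take the spread of the remaining single library from the other group. The test was checked on simulated counts. All 33 members are named. From each companion or marker list the text names up to 3 largest called changes in each direction at a mean of at least 1 CPM, or its most abundant gene if the list had no call. Members and lists were chosen with earlier results of these data known. Tables and plots were made in Python 3.11.15 with pandas 2.3.3 and matplotlib 3.10.9.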

Additional observations from a re-analysis of the deposited data

How the results depend on the processing

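Of the 14 called members, 3 (Lamc1, Sparc and Lama5) kept their call under each of the 13 alternatives, and 0 changed direction. The members called lower were 9 with all libraries, 5 without the low-count filter and 4 to 13 with 1 library left out. Those called higher were 5, with 3 under the GC-content offset and 1 to 9 with 1 library left out. Companion genes called lower ranged from 16 to 40 and those called higher from 5 to 34 when 1 library was left out. Over all tested genes the counts were 1381 lower and 928 higher, and they ranged from 648 to 4400 lower and from 254 to 4020 higher with 1 library left out. The summed level of the fibronectin and matricellular group had a log2 ratio of -0.64, and of -1.08 when computed per kb of exon. Several members that did not pass had a log2 fold change of the opposite sign under an alternative. With the GC-content offset this was -0.049 for Nid2, -0.085 for Hspg2, -0.013 for Dag1 and -0.022 for Smoc1. With 1 library left out it ranged from -0.70 to 0.22 for Lama2, from -0.35 to 0.064 for Lama3, from -0.29 to 1.06 for Col4a5, from -0.35 to 1.35 for Frem1 and from -0.0086 to 0.16 for Smoc1. That of Kat6a ranged from -0.74 without KO replicate 1 to 0.75 without KO replicate 2. The cause was not tested. Depth limits Col4a3, Col4a4 and Smoc2, which were not tested.

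The labels number the libraries 1 and 2 in each group. Deviations of same-numbered libraries from their group means correlated at 0.149, and with 2 pairs the numbers were not taken to pair the samples. With the replicate number as a block, 2147 genes were lower and 1613 higher. Under the block the adjusted p by edgeR was 0.135 for Lama1, 0.328 for Col4a1 and 0.327 for Tinagl1. These calls were lost, as was that of Loxl2 among the companion genes named. With the block and the GC-content offset together the log2 fold change was -0.048 for Nid2, -0.092 for Hspg2, -0.015 for Dag1 and -0.028 for Smoc1.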
